A study of Mus musculus with 26 samples.

Results

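The growth hormone and insulin-like growth factor (IGF) axis was followed in regenerating mouse liver through 9 genes: Igf1, Igfbp1, Igfbp2, Igfbp4, Igfals, Ghr, Socs2, Cish and Stat5b. They were taken by symbol from the deposited gene tables of RNA polymerase II (Pol II), and are 9 of 20933 genes with a measured body of at least 500 bp. A gene was tested if its rescaled Pol II signal lay above 0.5 per bp in at least 2 libraries, which 4761 genes did. Of the 9 genes, 8 were tested, and Stat5b was not.

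Growth hormone from the pituitary binds its receptor on hepatocytes, where the kinase JAK2 and the transcription factor STAT5 carry the signal to the nucleus. STAT5 switches on Igf1 and Igfals, and also Socs2 and Cish, whose proteins restrain the receptor in turn. The liver makes most of the circulating IGF-1, which travels bound to IGF binding proteins, partly in a complex stabilised by the acid-labile subunit encoded by Igfals. Igfbp1 is known as a gene held down by insulin and induced early after hepatectomy.

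The series used chromatin immunoprecipitation and sequencing, which recovers the DNA that a chosen protein occupies. Wild-type male C57BL6/J mice, an inbred laboratory strain, were operated on at 7 weeks of age and lost 3 of 5 liver lobes. The tissue taken out at surgery gave the 0 h samples, and regenerating livers gave samples at 3, 8, 16, 24, 36, 48 and 168 h. Antibodies were against Pol II and the liver transcription factors C/EBPalpha and C/EBPbeta at all 8 times, and against Egr1, a zinc finger transcription factor, at 36 h, with 1 sample each from the livers of 5 mice. The sources used here do not say whether those mice were pooled, and no group had a replicate, a sham operation or an unoperated control. The mock immunoprecipitation was not analysed here.

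Pol II was given per gene as a signed signal over the gene body past its first 500 bp. It was divided here by the width of the body, and values are called the deposited signal per bp. Positions are in the build mm9, as the files give them. From 38.4% of gene entries in the 168 h library to 50.6% in the 3 h library lay below 0, and read counts, and so depth, are unknown. Of the hepatocyte markers listed, 12 of 12 were tested, with a summed signal of 410 to 942 per bp. The sum over 12 Kupffer cell markers was 3.79 to 10.6 and over 10 sinusoidal endothelial markers 1.77 to 3.55. For 10 stellate cell and 9 lymphocyte markers it was below 0 in every library, and for 7 cholangiocyte markers it ran from -4.53 to 2.84. The tissue was whole liver, so fewer cells of a type and less Pol II per cell cannot be told apart.

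Igfbp1 had the highest Pol II signal of the 9 genes, with a median of 36.4 per bp over the 8 libraries, and Igfbp4 came next at 18.7. The medians were then 4.60 for Cish, 3.25 for Igf1 and 3.07 for Igfals. Igfbp2 at 0.702, Ghr at 0.687, Stat5b at 0.397 and Socs2 at -0.0055 were low. Of neighbours in this order, only Igfbp4 and Cish had ranges over time that did not overlap, since the lowest Igfbp4 value of 16.7 lay above the highest Cish value of 6.81.

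**Figure D1:**
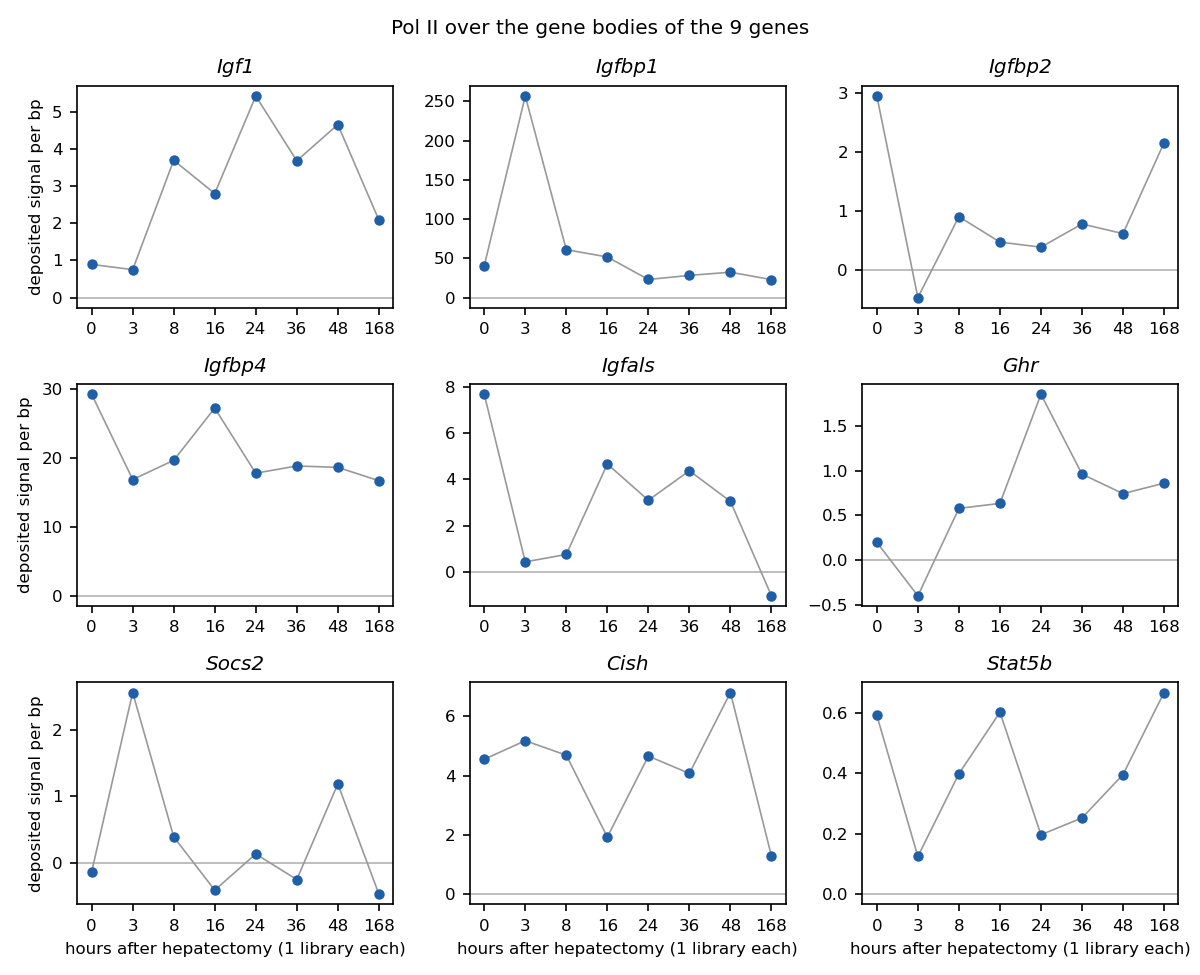
Deposited Pol II signal per bp of gene body (y axis, a separate linear scale for each gene) at 8 times after hepatectomy (x axis, hours, evenly spaced), with 1 library per point and no error bars because there are no replicates. Igfbp1 peaked at 257 at 3 h, Igfbp2 and Igfals had their highest values at 0 h, and Igf1 and Ghr had theirs at 24 h.

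The genes did not move as a block. Igf1 and Ghr lay above 0 h from 8 h on, Igfals lay below it throughout and Igfbp2 until 48 h. Igfbp1 was highest at 3 h, and Igfbp4 stayed near its starting level. Changes are log2 differences from the single 0 h library after rescaling, with 0.5 added, and a gene is called higher or lower where this reached 1. All 7 comparisons share that 0 h library. No pairwise test is possible with 1 library per time, so calls are read against the share of all tested genes past the same change.

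At 3 h, 2 of 9 genes were called higher, where 18.1% of tested genes were, and 2 lower, where 21.4% were. At 8 h, 1 was called higher (14.5% of tested genes) and 2 lower (12.8%). At 16 h, 0 were called higher (15.1%) and 2 lower (10.6%). These shares are close to what all tested genes showed, so the counts by themselves set the axis apart at none of these times.

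The later times were alike in this respect. At 24 h, 2 genes were called higher (18.4%) and 1 lower (14.4%), and at 36 h, 1 higher (16.5%) and 1 lower (11.1%). At 48 h, 2 were called higher (15.2%) and 1 lower (13.5%), and at 168 h, 2 higher (17.7%) and 1 lower (19.3%). Over time, Igf1 was called higher at no fewer than 4 of the 7 later times, as 12.5% of tested genes were, and Igfbp2 lower at no fewer than 4, as 11.7% were.

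**Figure D2:**
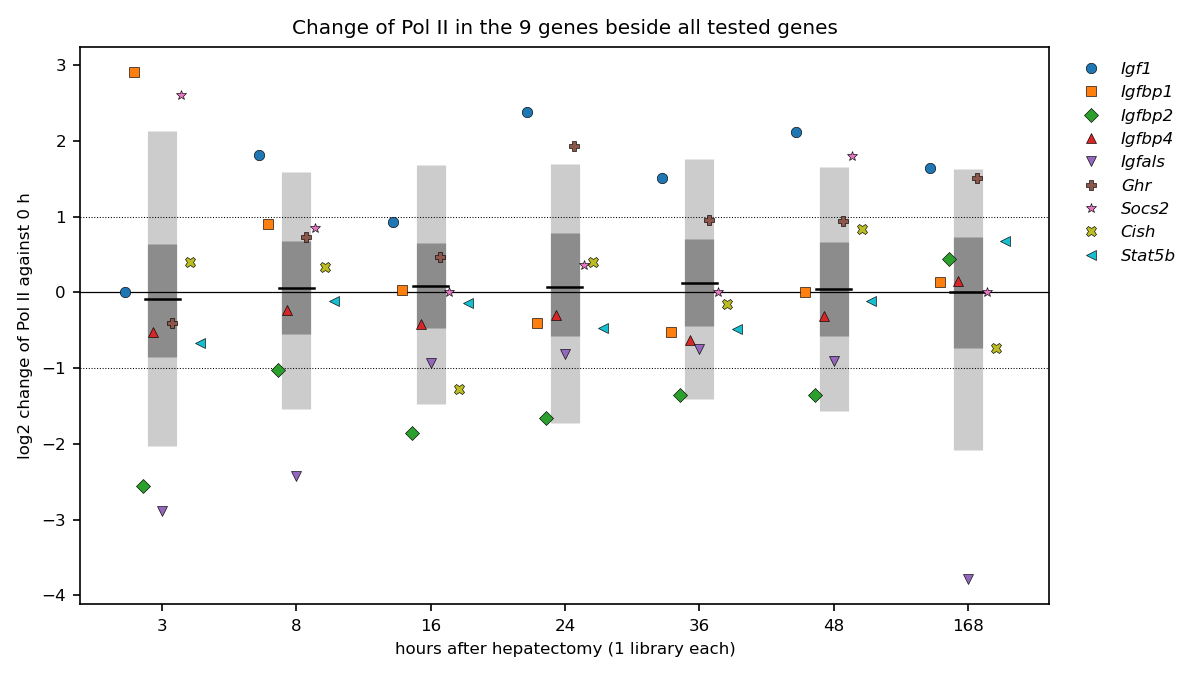
Log2 change of rescaled Pol II signal per bp against the 0 h library (y axis) at 7 later times (x axis, hours, 1 library each) for the 9 genes (symbols), over the range of 4761 tested genes (light bars from the 5th to the 95th percentile, dark bars the quartiles, black lines the median). Dotted lines mark a change of 1, and Igfbp1 and Socs2 at 3 h, Igf1 at 24 h and Igfals at 3 and 168 h are among those outside the light bars.

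A smooth trend over the 8 libraries was tested in every tested gene with limma, using a spline of the rank of time with 3 degrees of freedom. The 8 times thus entered as evenly spaced. None of the 8 genes passed, and neither did nearly all others, since 1 of 4761 tested genes (0.0210%) had a Benjamini-Hochberg adjusted p under 0.05. At an unadjusted p under 0.05 stood 458 genes (9.62%), among them Igfals (adjusted p = 0.465 in limma) and Igf1 (adjusted p = 0.510 in limma). The adjusted p of the other 6 ran from 0.547 to 0.941 in limma. The spread in this test is that of libraries around a curve, not of replicates.

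Igf1, on chromosome 10 with a measured body at chr10:87323276-87378515 on the plus strand, encodes the growth factor of the axis. Its deposited signal per bp was 0.894 at 0 h, 0.753 at 3 h, 3.70 at 8 h, 2.81 at 16 h, 5.43 at 24 h, 3.69 at 36 h, 4.67 at 48 h, then 2.09 at 168 h. The 0 and 3 h libraries were the lowest, and every library from 8 h on lay above both. The log2 changes were 0.01 at 3 h, 1.81 at 8 h, 0.93 at 16 h, 2.39 at 24 h, 1.51 at 36 h, 2.11 at 48 h, then 1.65 at 168 h. At 24 h this stood at the 98.6th percentile of tested genes, and at 48 h at the 97.8th.

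Igf1 and Ghr have long bodies, and 268 tested genes had bodies of at least 50 kb. Of these long genes, 12.3% were called higher at 3 h, 16.4% at 8 h, 9.33% at 16 h, 25.7% at 24 h, 10.1% at 36 h, 17.5% at 48 h, then 26.1% at 168 h. Against all tested genes these shares were higher at 8, 24, 48 and 168 h and lower at 3, 16 and 36 h. Their median change was 0.58 at 24 h and 0.61 at 168 h, and lay between -0.13 and 0.35 at the other times. The part of gene length in the Igf1 and Ghr values was not tested beyond this. At 168 h the Igf1 change was 0.90 without rescaling of the libraries, just under the limit of 1. With 2 added in place of 0.5, the Igf1 changes at 36 and 168 h were 0.88 and 0.98.

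Igfbp1 lies on chromosome 11, with its measured body at chr11:7098283-7102536 on the plus strand, and encodes a binding protein that holds IGF-1 away from its receptor. Its promoter is printed because the gene had the largest signal of the axis, and because its insulin response element is a textbook case. The 300 bases run from 250 before the RefSeq start to 50 after it, at chr11:7197537-7197836 on the plus strand of GRCm38.p6, a newer build than that of the files. Capitals mark words of the insulin response element, searched as CAAAACA or CAAAATA, and on the other strand as TGTTTTG or TATTTTG.
Igfbp1: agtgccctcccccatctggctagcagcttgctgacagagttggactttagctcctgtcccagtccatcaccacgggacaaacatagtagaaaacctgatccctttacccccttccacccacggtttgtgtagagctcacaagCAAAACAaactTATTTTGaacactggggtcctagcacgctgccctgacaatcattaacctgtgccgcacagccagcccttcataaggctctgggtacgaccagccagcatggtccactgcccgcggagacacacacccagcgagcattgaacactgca
The words start at -108 and -97 from the RefSeq start. Of 32851 RefSeq mouse promoters of this length, 10.2% hold such a word and 1.10% hold at least 2. A match describes the letters and does not show that a factor binds.

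The deposited signal over Igfbp1 was 40.5 per bp at 0 h, 257 at 3 h, 61.0 at 8 h, 51.7 at 16 h, 23.0 at 24 h, 28.3 at 36 h, 32.3 at 48 h, then 22.9 at 168 h. The 3 h library stood far above every other one. The log2 change was 2.91 at 3 h and 0.91 at 8 h, and from 16 h on it lay between -0.52 and 0.14. Igfbp1 was thus called higher at 3 h and at no other time.

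Igfbp2, on chromosome 1 at chr1:72872397-72899041 on the plus strand, encodes another circulating binding protein. Pol II over it, as deposited signal per bp, was 2.94 at 0 h, -0.459 at 3 h, 0.908 at 8 h, 0.478 at 16 h, 0.392 at 24 h, 0.784 at 36 h, 0.621 at 48 h, then 2.15 at 168 h. The 0 and 168 h libraries were the only ones above 1, and the 3 h value was below 0. The log2 change was -1.02 at 8 h, -1.85 at 16 h, -1.66 at 24 h, staying at -1.36 in both the 36 and 48 h libraries, with 0.44 at 168 h. At 3 h, where the value was set to 0, the change of -2.56 depends on the added 0.5 and is no estimate of a fold. With 2 added in place of 0.5, Igfbp2 was called lower at 3 h only.

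Igfbp4, on chromosome 11 at chr11:98903060-98915705 on the plus strand, encodes a binding protein that inhibits IGF action and is cleaved to release it. From 0 h on, its signal per bp was 29.2 at 0 h, 16.9 at 3 h, 19.6 at 8 h, 27.2 at 16 h, 17.8 at 24 h, 18.8 at 36 h, 18.6 at 48 h, then 16.7 at 168 h. The 0 and 16 h libraries were the highest, and the other 6 lay close together. After rescaling, the log2 changes ran from -0.62 at 36 h to 0.16 at 168 h, so Igfbp4 was called at no time. The rescaling itself moved changes by -0.32 at 16 h and 0.97 at 168 h on the log2 scale.

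Igfals, on chromosome 17 at chr17:25016216-25018953 on the plus strand, encodes the acid-labile subunit, a hepatocyte protein that stabilises the circulating IGF complex. The libraries gave it a deposited signal per bp of 7.68 at 0 h, 0.429 at 3 h, 0.750 at 8 h, 4.66 at 16 h, 3.09 at 24 h, 4.37 at 36 h, 3.05 at 48 h, then -1.04 at 168 h. It was highest at 0 h, low at 3 and 8 h, intermediate from 16 to 48 h, and below 0 at 168 h. The log2 changes were -2.89 at 3 h, -2.42 at 8 h, -0.94 at 16 h, -0.81 at 24 h, -0.74 at 36 h, with -0.90 at 48 h. The value at 168 h was set to 0, so its change of -3.78 is a call of lower and not a fold. Igfals was thus called lower at 3, 8 and 168 h.

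The neighbour Nubp2, an iron-sulfur cluster assembly factor, lies on the opposite strand with its body 611 bp from that of Igfals, and ChIP carries no strand. Nubp2 had a deposited signal per bp of 4.20 at 0 h, 1.29 at 3 h, 5.10 at 8 h, 9.58 at 16 h, 15.1 at 24 h, 10.2 at 36 h, 9.19 at 48 h, then 2.78 at 168 h. It was highest at 24 h, when Igfals was below its 0 h level. The part of Nubp2 in the Igfals values was not tested.

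Igfals has 2 promoters printed here, since RefSeq lists several starts for the gene. The upstream one, at chr17:24877981-24878280 of GRCm38.p6 on the plus strand, holds a STAT word, searched as TTCNNNGAA, in capitals at -58 from its start. The downstream one, at chr17:24878497-24878796 on the same strand, begins within 26 bp of the start used in the files by distance to the gene's end. It is shown because a C/EBP region lay at that start in nearly all lists.
Igfals upstream: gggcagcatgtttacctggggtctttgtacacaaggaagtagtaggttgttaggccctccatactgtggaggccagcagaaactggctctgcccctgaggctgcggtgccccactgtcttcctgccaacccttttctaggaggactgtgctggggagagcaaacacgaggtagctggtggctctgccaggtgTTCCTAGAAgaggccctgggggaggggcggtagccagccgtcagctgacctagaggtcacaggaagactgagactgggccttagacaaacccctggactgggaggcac
Igfals downstream: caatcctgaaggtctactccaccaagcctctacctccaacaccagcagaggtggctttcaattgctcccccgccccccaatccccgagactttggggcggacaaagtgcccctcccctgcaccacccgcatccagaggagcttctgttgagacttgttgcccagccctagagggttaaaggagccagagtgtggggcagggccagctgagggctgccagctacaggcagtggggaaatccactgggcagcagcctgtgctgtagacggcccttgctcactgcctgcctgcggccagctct
Of all RefSeq promoters of this length, 8.30% hold the STAT word, which reads the same on both strands. The downstream promoter holds neither this word nor a C/EBP word, searched as TTGCNNAA and TTNNGCAA and found in 10.8% of promoters.

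Ghr, on chromosome 15 at chr15:3277535-3420987 on the minus strand, encodes the growth hormone receptor. Per bp, its deposited signal was 0.197 at 0 h, -0.401 at 3 h, 0.576 at 8 h, 0.632 at 16 h, 1.85 at 24 h, 0.959 at 36 h, 0.741 at 48 h, then 0.858 at 168 h. The 24 h library was the highest, and the 0 and 3 h libraries were the lowest. The log2 changes were -0.41 at 3 h, 0.73 at 8 h, 0.47 at 16 h, 1.94 at 24 h, 0.96 at 36 h, 0.94 at 48 h, then 1.51 at 168 h. Ghr was called higher at 24 and 168 h, and at neither with 2 added in place of 0.5, where the changes were 0.90 and 0.65. Without rescaling, the change was 0.96 at 168 h, under the limit, and 1.07 at 36 h, past it. The limit on long genes given with Igf1 holds here too. The start in the files lies at least 120134 bp downstream of the RefSeq starts by distance to the gene's end, so regions near those starts were not analysed here.

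Socs2, on chromosome 10 at chr10:94875251-94877417 on the minus strand, encodes a suppressor of cytokine signalling that limits growth hormone action. Its deposited signal per bp was -0.140 at 0 h, 2.56 at 3 h, 0.387 at 8 h, -0.416 at 16 h, 0.129 at 24 h, -0.256 at 36 h, 1.18 at 48 h, then -0.474 at 168 h. It was highest at 3 h, next at 48 h, and below 0 in 4 of the 8 libraries. Socs2 was called higher at 3 and 48 h, and since its 0 h value was below 0, no fold is given. After rescaling, only the 3 and 48 h libraries lay above 0.5, so Socs2 passed the filter only where it was called. Its calls beside the share of tested genes are therefore not independent of the filter. With 2 added in place of 0.5 the 48 h change was 0.70 and the call was lost. Its body of 2167 bp is the shortest of the 9. Single values of cholangiocyte markers, from -1.54 to 5.74 per bp, spanned all of its values, but only through Sox9 at 16 h. The next highest value of these markers was 0.203, below those of Socs2 at 3, 8 and 48 h.

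Cish, on chromosome 9 at chr9:107199521-107204292 on the plus strand, encodes a related suppressor that STAT5 induces. Its promoter is shown for its pair of STAT words, in capitals, at 0 and 11 from the RefSeq start. It lies at chr9:107296409-107296708 on the plus strand of GRCm38.p6, and at least 2 such words are found in 0.457% of all RefSeq promoters of this length.
Cish: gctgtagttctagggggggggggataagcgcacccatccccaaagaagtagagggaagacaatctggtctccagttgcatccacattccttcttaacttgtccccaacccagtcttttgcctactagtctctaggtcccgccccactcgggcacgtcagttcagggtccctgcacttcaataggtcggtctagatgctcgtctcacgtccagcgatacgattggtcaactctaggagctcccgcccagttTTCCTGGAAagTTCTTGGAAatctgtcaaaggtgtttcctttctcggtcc
The start used in the files lies 853 bp inside this one by distance to the gene's end.

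The deposited signal over Cish was 4.55 per bp at 0 h, 5.18 at 3 h, 4.69 at 8 h, 1.92 at 16 h, 4.66 at 24 h, 4.07 at 36 h, 6.81 at 48 h, then 1.28 at 168 h. The 16 and 168 h libraries were low, and the other 6 lay between 4.07 and 6.81. The log2 change was -1.27 at 16 h and ran from -0.73 to 0.83 at the other times, so Cish was called lower at 16 h alone. At 168 h it was also called lower when libraries were not rescaled (-1.50) or were rescaled by their sums (-1.10). With 2 added in place of 0.5 the 16 h change was -0.82, and that call was lost. Cish and Socs2, both feedback inhibitors of the receptor, had their lowest values at 168 and 16 h and their highest at 3 and 48 h.

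Stat5b, on chromosome 11 at chr11:100642050-100683342 on the minus strand, encodes the main STAT5 of the liver. The values per bp in the deposited tables were 0.592 at 0 h, 0.124 at 3 h, 0.398 at 8 h, 0.602 at 16 h, 0.196 at 24 h, 0.252 at 36 h, 0.396 at 48 h, then 0.668 at 168 h. All 8 values were low, and after rescaling only the 168 h library lay above 0.5. The log2 changes ran from -0.67 at 3 h to 0.68 at 168 h, and Stat5b was called at no time.

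Each tested gene was set beside the 3 tested genes whose log2 Pol II followed it most closely over the 8 libraries, as a description of libraries that share their scaling. Igf1 was most like Raph1 (Pearson r = 0.991, Spearman rho = 1, n = 8 libraries), then Bclaf1 and 1700094D03Rik. Igfbp1 was most like Adck4 (r = 0.983, rho = 0.786, n = 8 libraries), then Nlrp12 (rho = 0.764) and Arid5a (rho = 0.507). Like Igfbp1, all 3 had their highest value in the 3 h library, which weighs heavily in r. Igfbp2 was most like Epha1 (r = 0.990, rho = 1, n = 8 libraries), and Igfbp4 was most like Serpina6 (r = 0.971, rho = 0.976, n = 8 libraries). Igfals was most like Ihh (r = 0.966, rho = 0.946) and Ghr like Hpgd (r = 0.987, rho = 1). Socs2 was most like Slc37a1 (r = 0.969, rho = 0.831) and Cish like Gja1 (r = 0.927, rho = 0.738). Only the 3 and 48 h libraries of Socs2 lay above 0.5 after rescaling, so they weigh heavily in its r. Among the 8 tested genes of the axis, the closest pair was Igf1 and Ghr (r = 0.894).

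C/EBPalpha and C/EBPbeta are leucine zipper transcription factors that bind at many liver genes. Regions within 10 kb of a gene start, taken 500 bp before the measured body, were counted by list, each beside the share of tested genes that had one. In the C/EBPalpha lists 7 of 9 genes had one at 0 h (64.3%), 8 at 3 h (70.3%), 7 at 8 h (65.1%), 8 at 16 h (65.0%), 7 at 24 h (60.9%), 7 at 36 h (67.4%), 8 at 48 h (60.9%), then 7 at 168 h (67.1%). In the C/EBPbeta lists 8 had one at 0 h (77.8%), 7 at 3 h (80.7%), 8 at 8 h (73.8%), 8 at 16 h (65.7%), 9 at 24 h (66.4%), 8 at 36 h (77.7%), 7 at 48 h (60.6%), then 8 at 168 h (65.7%). The share among the 9 genes lay above that of tested genes in every list but that of C/EBPbeta at 3 h. The lists recount the same 9 gene starts, so this is not repeated evidence, and no test of these differences was made. In all 8 C/EBPalpha lists a region lay near Igf1, Igfbp1, Igfbp4, Socs2 and Stat5b, which is 5 of 9 genes beside 41.7% of tested genes. In all 8 C/EBPbeta lists Igfals joined them, which makes 6 of 9 beside 47.6%. Within 1 kb of the start the same was true of Stat5b for C/EBPalpha, and of Igfbp4, Igfals and Stat5b for C/EBPbeta. The shares of tested genes within 1 kb are given with the other settings below.

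**Figure D3:**
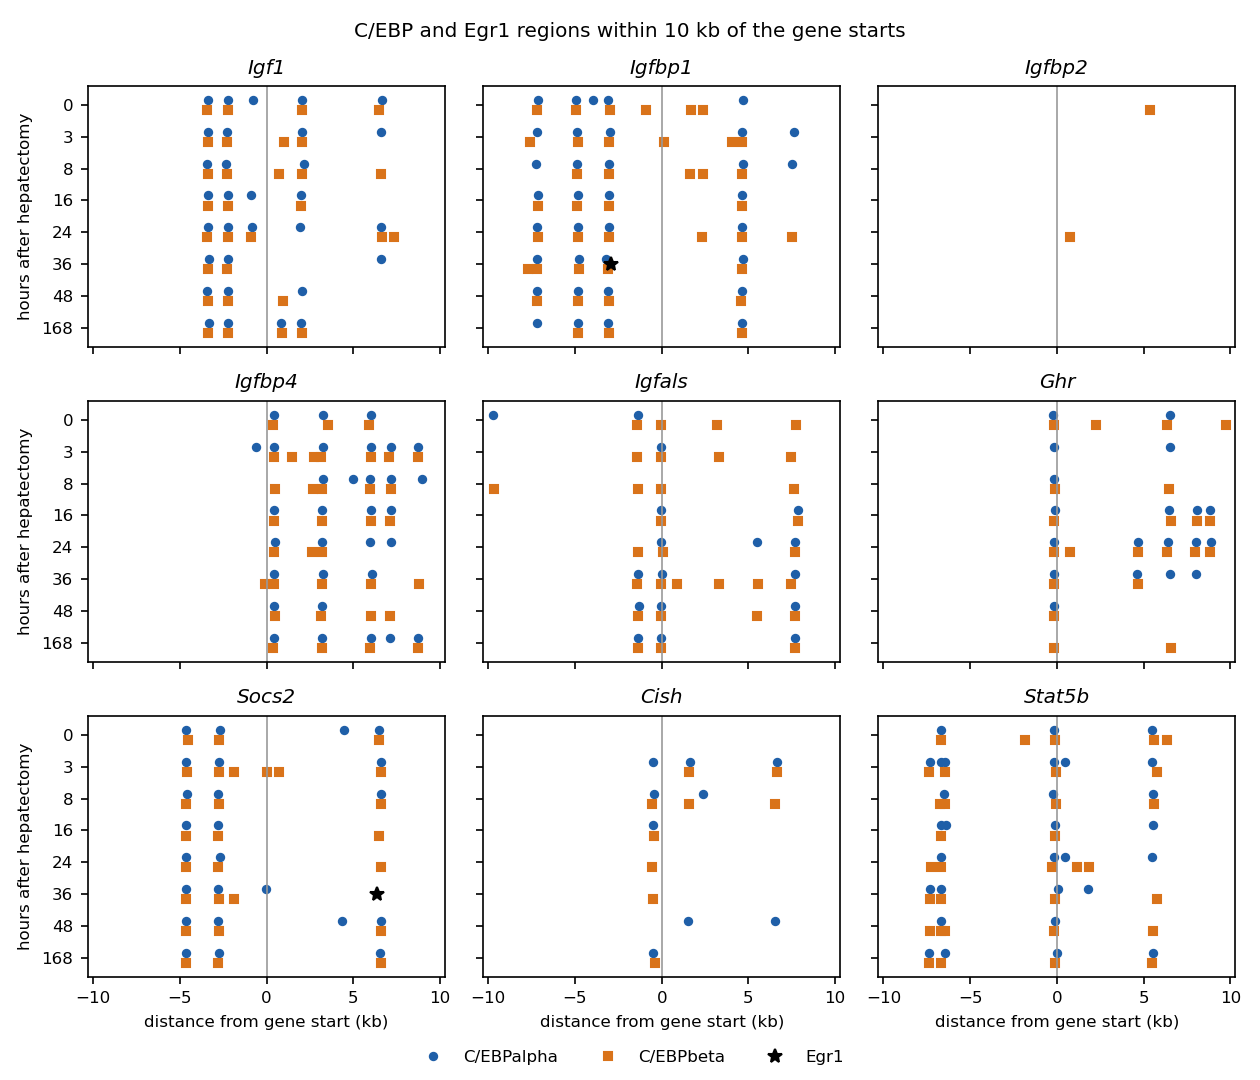
Centres of C/EBPalpha regions (blue circles), C/EBPbeta regions (orange squares) and Egr1 peaks (black stars) by distance from the gene start in kb (x axis, negative upstream) and by time after hepatectomy (y axis, hours, 1 list per factor and time). Igf1, Igfbp1, Socs2 and Stat5b have vertical columns of marks filled at all 8 times for both factors, and Igfbp2 has 2 marks in all.

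Joined within 250 bp, the 423 C/EBP regions near these genes formed 67 sites. Of these, 8 were in all 16 C/EBP lists, 19 in at least 12, and 21 in 1 list. A site was in C/EBPbeta lists only in 23 cases and in C/EBPalpha lists only in 6, and 8 of these sites were in 2 or more lists. The C/EBPbeta list was the longer at every time but 168 h, with 54574 regions against 29383 at 0 h. These counts are thus no measure of a preference for a factor.

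The 8 constant sites belonged to 4 genes, a pair each: Igf1 at -3385 and -2246 bp, Igfbp1 at -4856 and -3027, Socs2 at -4632 and -2763, and Stat5b at -6668 and -92. Sites were joined only near genes of the axis, so no share of tested genes with a constant site was computed. These counts of sites and genes thus do not set the axis against other genes. The Stat5b site at -6668 bp joined centres from -6720 to -6394 bp. The C/EBPalpha list of 3 h held separate regions there, at -6686 and -6452 bp. That of 8 h held only a region at -6483 bp, and that of 24 h only a region at -6669 bp. The presence of this site in all 16 lists thus rests on the joining within 250 bp. Distances are from the starts in the files, and the RefSeq start of Igf1 lies 20196 bp further upstream by distance to the gene's end, so both Igf1 sites may lie inside the RefSeq gene. Of these 8 sites, only that at -92 bp of Stat5b lay within 1 kb of its start in the files. A RefSeq start of Stat5b lies 28057 bp further upstream by the same distance, so both Stat5b sites may lie inside that longer gene.

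Scores are the authors' and rank regions within a list only. The Socs2 site at -4632 bp ranked 171 of 34098 in the C/EBPbeta list of 24 h, within the top 0.501%, and its lowest region lay within the top 61.9% of a list. The Igfbp1 site at -4856 bp ranked 232 of 36258 in the C/EBPbeta list of 8 h, within the top 0.640%, and its lowest region lay within the top 15.6%. From best to lowest, the Igf1 site at -3385 bp ran from the top 3.72% to 57.5%, and that at -2246 bp from 5.82% to 38.0%. The Stat5b site at -6668 bp ran from 3.45% to 78.1%, and that at -92 bp from 10.4% to 79.7%. Of these 6 sites, that of Igfbp1 thus had the narrowest range of ranks. The genes with the most constant C/EBP sites thus ranged in Pol II from the highest signal of the axis, Igfbp1, to the lowest, Socs2.

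A Stat5b promoter is printed because the start in the files carried C/EBP regions in all 16 lists. It lies at chr11:100822521-100822820 on the minus strand of GRCm38.p6, and its start and that of the files differ by 46 bp in distance to the gene's end. Capitals mark TTGCG, the core of a C/EBP word searched with its reverse CGCAA, at -104 from the RefSeq start.
Stat5b: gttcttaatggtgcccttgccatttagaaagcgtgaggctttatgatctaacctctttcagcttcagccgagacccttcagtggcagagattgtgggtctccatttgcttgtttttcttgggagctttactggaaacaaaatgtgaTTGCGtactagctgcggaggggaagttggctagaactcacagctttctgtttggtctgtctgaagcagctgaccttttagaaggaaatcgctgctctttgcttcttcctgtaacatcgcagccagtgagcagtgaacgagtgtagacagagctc
This core is found in 17.4% of RefSeq promoters of the same length, and was searched for after the sequence was read. The longer C/EBP word is not among these letters. RefSeq has another Stat5b start, which lies 28057 bp upstream of that of the files by distance to the gene's end. The promoter at that start is not printed, and regions near it were not analysed here.

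The other genes had sites that came and went between lists. Igfals had a site at -35 bp in all 8 C/EBPbeta lists and in 6 C/EBPalpha lists, missing at 0 and 8 h. Ghr had one at -168 bp in 7 lists of each factor, missing from C/EBPalpha at 168 h and from C/EBPbeta at 3 h. Cish had one at -488 bp in 4 C/EBPalpha and 5 C/EBPbeta lists, and in neither list of 0 h or of 48 h. Igfbp4 had one at 448 bp in 7 C/EBPalpha and 8 C/EBPbeta lists.

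Igfbp2 stood out among the 9 genes for how few regions it had. It had no C/EBPalpha region within 10 kb in any list, and C/EBPbeta regions at 0 h, 5359 bp downstream of the start, and at 24 h, 740 bp downstream. A region that is missing from a list was not called there, and list lengths ran from 20061 to 54574, so a missing region is no measure of lost binding. Set to the same length, the lists gave the same 5 and 6 genes a region in all 8 C/EBPalpha and all 8 C/EBPbeta lists.

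Egr1, an immediate early transcription factor, had a peak within 10 kb of 2 of the 9 genes at 36 h, where 19.5% of tested genes had one. Near Igfbp1 the peak lay at chr11:7094286-7095390, at -2944 bp from the start, with a score of 81.1, and it spanned the constant C/EBP site at -3027 bp. Near Socs2 it lay at chr10:94870863-94872183, at 6394 bp, with a score of 65.2. That peak spanned a C/EBP site found in 5 C/EBPalpha and 7 C/EBPbeta lists, though in neither list of 36 h. Neither peak was in the upper part of the Egr1 list when it was divided at its median score.

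Among 16 further genes of growth hormone receptor signalling, 8 were tested, and 4 of these were called higher at no fewer than 4 of 7 times, where 12.5% of tested genes were, and 0 were called lower as often, where 11.7% were. Socs3, a suppressor of cytokine signalling that STAT3 induces, was called higher at all 7 times. Signal per bp over Socs3, as deposited, was 2.86 at 0 h, 129 at 3 h, 61.3 at 8 h, 62.2 at 16 h, 21.9 at 24 h, 25.8 at 36 h, 48.6 at 48 h, then 11.0 at 168 h. Every later library lay above 0 h, with a median log2 change of 3.86. The median changes of the other 3 were 1.47 for Stat3, 1.21 for Stat5a and 1.08 for Ptpn1, which encodes a phosphatase acting on JAK2. The Ptpn1 value at 0 h was -0.217 per bp and was set to 0. Its changes thus depend on the added 0.5 and are no estimate of a fold.

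Stat5a, the close relative and neighbour of Stat5b, had a deposited signal per bp of 0.293 at 0 h, 1.61 at 3 h, 1.17 at 8 h, 1.84 at 16 h, 0.882 at 24 h, 0.939 at 36 h, 1.44 at 48 h, then 0.597 at 168 h. Its 0 h library was the lowest, whereas that of Stat5b was among its highest. The difference between the genes was not tested. Jak2, the kinase of the receptor, is named after its values were seen. It did not pass the filter, with values of -0.307 to 0.0471 per bp.

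Of 23 growth hormone-responsive and sex-biased liver genes, 21 were measured and 8 tested. Of these 8, 1 was called higher at no fewer than 4 of 7 times, where 12.5% of tested genes were. Likewise 1 was called lower as often, where 11.7% of tested genes were, so these counts do not set the list apart. Serpina1e, a protease inhibitor gene expressed in male mouse liver, was called higher at all 7 times with a median log2 change of 2.57. Cyp2d9, a male-biased steroid hydroxylase, was called lower at 4 of 7 with a median of -1.10. Both belong to families of near-identical genes between which reads can be split, so their values are uncertain.

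**Figure D4:**
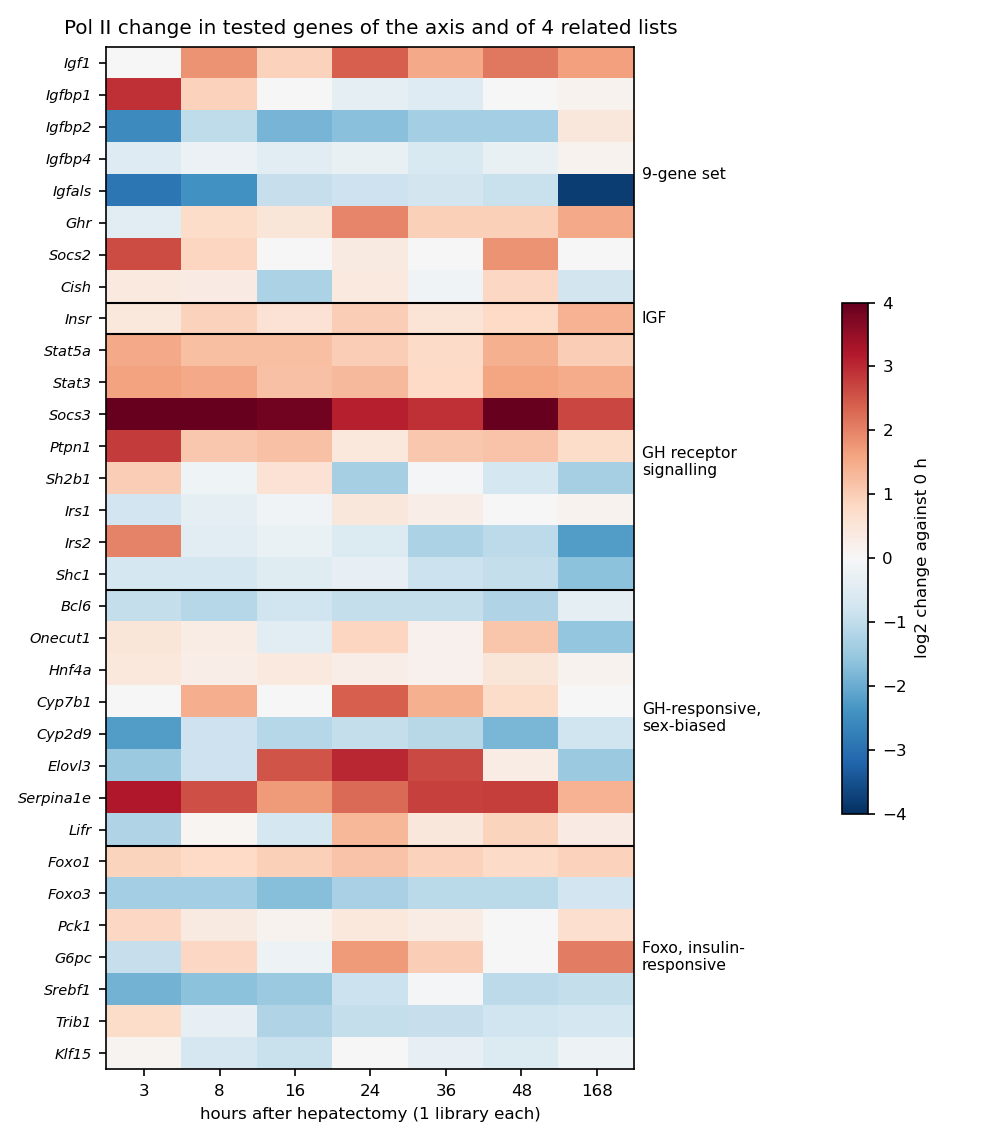
Log2 change of rescaled Pol II signal per bp against 0 h (colour, red higher and blue lower) at 7 later times (columns, hours, 1 library each) for the tested genes reported here of the axis and of 4 related lists (rows, separated by lines). Socs3 and Serpina1e are red at all 7 times and Foxo3 is blue at all 7, beside Igf1 and Igfbp2 in the top block.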

How the data were processed

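Pol II was measured by ChIP-seq at 8 times, C/EBPalpha and C/EBPbeta likewise, and Egr1 at 36 h, with 1 sample each. Groups follow the sample titles. The submitters' processing notes name mm9 as the build, with Bowtie 0.12.7 and MACS 1.4.1. Their roles, any filters and any control are not stated in the sources used here. The deposited Pol II value is a signed number per gene, from its values a sum over the gene body less a background, in no stated unit. The deposited C/EBP score is a scaled difference or sum per the file headers, and the deposited Egr1 score is that of the peak caller. Positions were read as BED positions.

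Pol II values were divided by body width. Median-of-ratios rescaling used 1472 genes. This moved the log2 changes against 0 h by 0.26, 0.33, -0.32, 0.41, -0.01, 0.33 and 0.97 from 3 to 168 h. Negative values became 0, and a pseudocount of 0.5 preceded the log2. For trends limma 3.58.1 ran in R 4.3.3. The test planned for counts was not used, since these values are not counts. In simulated data of 4761 genes, the trend test recovered 27 of 100 genes planted at log2 size 2 and 96 of 100 at 4. It called 7 others. The planted courses were smooth and the noise was independent between genes and libraries. Recovery of a peak in a single library, or under shifts shared by genes, was not tested.

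Named beside the 9 genes are the 3 closest followers of each, of which some are given, and the genes of 4 lists past a change of 1 in at least 4 of 7 times. Some genes of these lists are not reported here. The members and lists were chosen with earlier results of these data known. Promoters of 8 of the 9 genes were in the RefSeq table of GRCm38.p6, used for sequence only. Exons and introns were not analysed here, and overlapping genes cannot be told apart. No label gives library batches, so batch and time cannot be told apart.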

Additional observations from a re-analysis of the deposited data

How the results depend on the processing

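No paired analysis was possible because each antibody and time had 1 sample and no label pairs them. Of 20 gene and time pairs past a change of 1, 9 stayed past it under all 5 settings of scale and pseudocount, and no change reversed. The 1 gene past the trend test was lost with a pseudocount of 0.05 (0 genes) and with no filter (0 genes), and leaving out 1 library at a time gave 0 to 1 genes, with the 1 found without the 168 h library. With a pseudocount of 0.05, 4 members were lower at 3 h, 3 higher at 8 h, 2 higher at 16 h, 2 lower at 24 h, and 2 higher and 2 lower at 36 h. With a pseudocount of 2, 1 was lower at 8 h, 0 lower at 16 h, 1 higher and 0 lower at 24 h, 0 higher and 0 lower at 36 h, 1 higher and 0 lower at 48 h, and 0 higher at 168 h. With no rescaling, 1 was higher at 16 h, 2 lower at 24 h, 2 higher at 36 h, 2 lower at 48 h, and 0 higher and 2 lower at 168 h. Rescaling by the sum of values above 0 gave 2 lower at each of 24, 48 and 168 h. No share of tested genes was computed under these other settings. These counts thus show how calls depend on the processing, and do not set the axis against other genes. The larger pseudocount shrinks changes of low genes by its construction, and the other causes were not tested. Within 1 kb, 1 gene had a C/EBPalpha region in all 8 lists (13.6% of tested genes), 3 a C/EBPbeta region (16.6%) and 0 an Egr1 peak (3.78%). Within 5 kb, 1 had an Egr1 peak (11.0%). Within 25 kb, 9 had a C/EBPalpha region in all 8 lists (63.0%) and 5 an Egr1 peak (35.4%). In the upper part of the Egr1 list by score 0 had one (10.8%). Depth is unknown, so the counting error of low signals, such as those of Socs2, Ghr and Stat5b, cannot be given.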

Other observations

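The rest of the IGF system had little Pol II signal in these gene tables. The list held 16 further genes of ligands, receptors, binding proteins, their proteases and inhibitors of these, and the mRNA-binding Igf2bp genes. Of these, 16 were measured and 1, the insulin receptor gene Insr, was tested. Its deposited Pol II signal per bp was 0.0780 at 0 h, 0.266 at 3 h, 0.547 at 8 h, 0.513 at 16 h, 0.566 at 24 h, 0.403 at 36 h, 0.456 at 48 h, then 0.610 at 168 h. The 0 h library was the lowest, and Insr was called higher at 168 h and at no other time. Igf1r, the IGF-1 receptor gene, ran from -0.460 to -0.167 per bp, and Igfbp3, the main carrier of circulating IGF-1, from -0.636 to -0.0323. Both were thus below 0 in all 8 libraries, and are named after their values were seen.

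Of 12 genes that insulin and Foxo factors control in liver, 8 were tested, and 3 were called lower at no fewer than 4 of 7 times, where 11.7% of tested genes were. Foxo3, a Foxo factor, was called lower at 6 of 7 times with a median log2 change of -1.29. Its deposited signal per bp was 5.91 at 0 h and between 1.52 and 2.52 at the later times. Srebf1, a regulator of fatty acid synthesis, had a median change of -1.06 and was near its 0 h level at 36 h, with a log2 change of -0.04. Of the 8 tested, 0 were called higher at 4 or more times.

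Socs1, a suppressor of cytokine signalling outside the filter and named after its values were seen, had 1 high library. Its deposited signal per bp was -1.93 at 0 h, 11.5 at 3 h, 0.0921 at 8 h, -0.637 at 16 h, -2.54 at 24 h, -1.95 at 36 h, -1.43 at 48 h, then -2.18 at 168 h. The 3 h library was the same one in which Igfbp1, Socs2 and Socs3 had their highest values.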
